A study of Mus musculus with 16 samples.

Results

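The genes described here are 10 members of the BCL2 family: the survival genes Bcl2, Bcl2l1, Mcl1 and Bcl2a1b, the pore-forming effectors Bax and Bak1, and the BH3-only genes Bcl2l11, Bbc3, Pmaip1 and Bmf. They were taken by gene symbol from the 38355 genes of the expression values. All 10 were tested, as were all genes whose RPKM averaged more than 1 in any group, 12507 in number. RPKM is the read number scaled by exon length and library depth, so levels on this scale can be compared between genes. The values come from RNA-Seq of B-cells sorted from the spleens of C57BL/6 mice, either wild-type (WT) or Mir146a-/- (KO), the latter homozygous for deletion of the miR-146a gene. Transitional T1 cells were sorted as CD23- AA4+ IgM high CD21 negative to low, T2 cells as CD23+ AA4+ IgM high CD21 low, marginal zone (MZ) cells as CD23- AA4- IgM high CD21 high, and follicular (FO) cells as CD23+ AA4- IgM low CD21 intermediate. Each of the 8 groups had 2 biological replicates, 16 libraries in all, and each sort pooled spleens of several mice, whose age is not given for these libraries. Whether subsets of the same genotype and replicate number came from the same pool of mice is not stated.

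The BCL2 family controls the mitochondrial pathway of apoptosis. Survival proteins hold back BAX and BAK, which otherwise open the outer membrane of the mitochondrion and release cytochrome c. BH3-only proteins start the process by binding the survival proteins, and some of them also activate BAX and BAK directly. In the spleen, T1 cells are recent arrivals from the bone marrow that are readily lost after antigen receptor signaling, T2 cells depend on the cytokine BAFF and give rise to FO and MZ cells, and the balance of BCL2 family members is known to set how long a B-cell survives.

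Because the KO mice lack miR-146a, the mature miRNA is shown first, with the seed (bases 2 to 8) in capitals, followed by the matches to this seed in the 3′ UTRs of the members. The miRNA, from RefSeq on GRCm38.p6, lies at chr11:43374435-43374456 on the minus strand.
mmu-miR-146a-5p: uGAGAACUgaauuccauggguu
Among the 10 members, 1 match of 7 bases was found in the annotated 3′ UTR of Bcl2 and 1 in that of Bcl2l1, and no match of 8 bases in any. They lie on GRCm38 at chr1:106539550-106539578 and chr2:152781921-152781949, both on the minus strand, and are printed with the matched letters AGTTCTC in capitals.
Bcl2 3′ UTR: ggagccactaaAGTTCTCttctgagctta
Bcl2l1 3′ UTR: ccccacatctcAGTTCTCttggcctcaaa
A match of 7 or 8 bases was present in 2260 of 10286 tested genes with an annotated 3′ UTR (21.97%), and 501 (4.87%) held a match of 8 bases, so a match of this kind is common. The 3′ UTRs of Mcl1, Bcl2a1b, Bax, Bak1, Bcl2l11, Bbc3, Pmaip1 and Bmf held none.

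Promoters of 9 members, all but Pmaip1, were matched by symbol to RefSeq sequences on GRCm38.p6 (250 bases before to 50 after a start site, 16 promoters in all) and searched on both strands for letters bound by 3 kinds of factor. The FOXO letters GTAAACA were found at Bcl2l11 and Bbc3, both known FOXO target genes, and in 3.65% of all 32851 promoters of this length. The letters GAGGAAGT, bound by PU.1 and related factors of B-cells, were found at Bcl2a1b and Bak1 and in 3.2% of promoters. An NFκB motif was found at 0 of the 16 and in 1.2% of all promoters. The matches are in capitals, on the strand of the gene, at -227 for Bcl2l11, -167 for Bbc3, -148 for Bcl2a1b and -22 for Bak1 from the start site.
Bcl2l11 (chr2:128125800-128125828, plus strand): aagacactaggGTAAACAcgccggggtgg
Bbc3 (chr7:16310083-16310111, plus strand): tctggcgggttTGTTTACaaacaatgggg
Bcl2a1b (chr9:89199114-89199143, plus strand): cagaagaggaaGAGGAAGTggtgtgttgct
Bak1 (chr17:27028631-27028660, minus strand): ggccaccgagaACTTCCTCtagagggagct
These matches describe letters in a window, and no binding was measured.

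The read totals implied by the RPKM scaling, worked out here and not reported by the authors, were 9003343 to 26386684 per library. The deleted gene, Mir146, had 1 read in each WT FO library and 0 in all others, so these libraries of longer RNA do not check the genotype labels. Summed RPKM of 6 B cell markers was 4418 to 7193, against 3.11 to 19.4 for 7 T cell markers, 0.373 to 5.43 for 5 erythroid markers and 9.72 to 127 for 10 myeloid markers. Myeloid marker RNA differed between subsets, at 74.0 to 127 summed RPKM in T2, 14.1 to 101.9 in T1, 20.8 to 60.7 in MZ and 9.72 to 38.4 in FO. From T2 to FO, 6 of 8 tested myeloid markers fell (adjusted p under 0.05 with limma, as below), where 5.04% of all tested genes fell. The median log2 difference of the markers was -2.16. From T2 to MZ 1 rose and 2 fell, where 22.8% and 19.6% of all tested genes did, with a median of -1.45. Of the sorted surface proteins' genes, Fcer2a, Cd93 and Cr2 followed the gates. Fcer2a (CD23) was 604 to 751 RPKM in T2 and FO and 6.74 to 56.4 in T1 and MZ, and Cd93 (AA4) was 26.6 to 36.4 in T1 and 0.288 to 0.356 in MZ. The entries of Cr2 (CD21) were highest in MZ (723 to 974 and 578 to 717). Ighm did not follow the IgM gate alone. It was 11196 to 35988 in T1, 4540 to 4806 in T2 and 4007 to 5139 in MZ, all sorted IgM high, and 3556 to 3978 in FO. Libraries that stood apart bear on several genes below. The T1 libraries of replicate 2 carried 3047 (WT) and 4160 (KO) summed RPKM of 5 plasma cell markers, those of replicate 1 carried 686 and 1278, and the 12 libraries outside T1 carried 91.5 to 223. The T1 libraries of replicate 2 also had more of other RNA than those of replicate 1. T cell markers were at 17.8 (WT) and 19.1 (KO) summed RPKM against 3.11 and 4.78. Myeloid markers were at 28.0 and 101.9 against 14.1 and 18.5. For 8 cell cycle genes the sums were 103 and 149 against 69.4 and 47.2. Plasma cell markers were led by Igj, the joining chain of antibodies. The KO libraries of replicate 1 had low immediate early genes, which answer a stimulus within minutes: 263 to 1045 summed RPKM over 14 such genes, against 1085 to 4440 in the other 12 libraries.

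Differences are given on the log2 scale of RPKM + 0.5 with their standard error (SE), from a fit of all 8 groups in limma, and a gene passed at an adjusted p under 0.05 (Benjamini-Hochberg over the 12507 genes). A difference averaged over genotypes compared the 4 libraries of a subset with the 4 of another. From T1 to T2, 4 of the 10 members passed, 2 higher and 2 lower, where 16% of all tested genes were higher and 9.94% lower. From T2 to MZ, 6 members passed, 3 higher and 3 lower, against 22.8% and 19.6% of genes. From T2 to FO only Mcl1 passed, which was lower, against 4.77% higher and 5.04% lower. From FO to MZ, 3 members passed, 1 higher and 2 lower, against 19.9% and 17.4%. With a fold above 2 as well, the counts were 2, 4, 0 and 1 members, where 5.44%, 10.9%, 1.16% and 9.32% of genes were called. The median difference of the members was -0.02 from T1 to T2, -0.01 from T2 to MZ, 0.0014 from T2 to FO and 0.06 from FO to MZ, against 0.08, 0.02, 0.0003 and 0.04 over all tested genes, so the family did not move in a common direction.

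**Figure D1:**
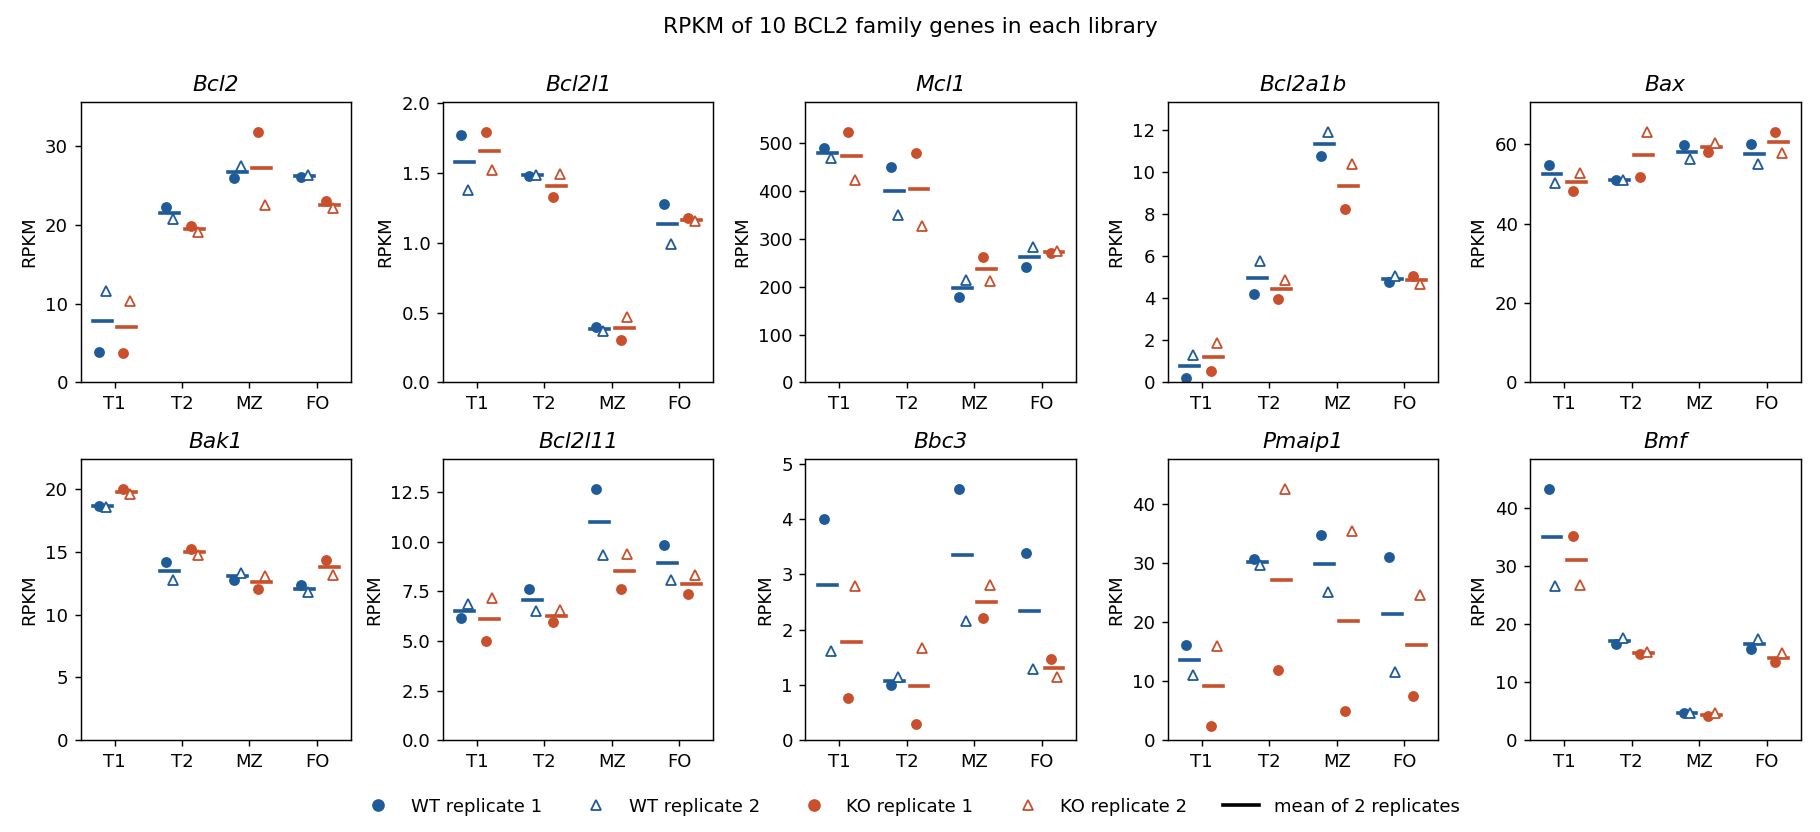
RPKM (linear axes from 0) of the 10 members in each of the 16 libraries, by subset on the x axis, with WT in blue, KO in orange, filled circles for replicate 1, open triangles for replicate 2 and a bar at the mean of the 2. Bmf and Bcl2l1 were lowest in MZ (4.14 to 4.64 and 0.307 to 0.471 RPKM), Bcl2a1b was highest there (8.25 to 11.9 RPKM), Bax lay within 48.2 to 63.2 RPKM throughout, and the KO replicates of Pmaip1 lay far apart.

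**Figure D2:**
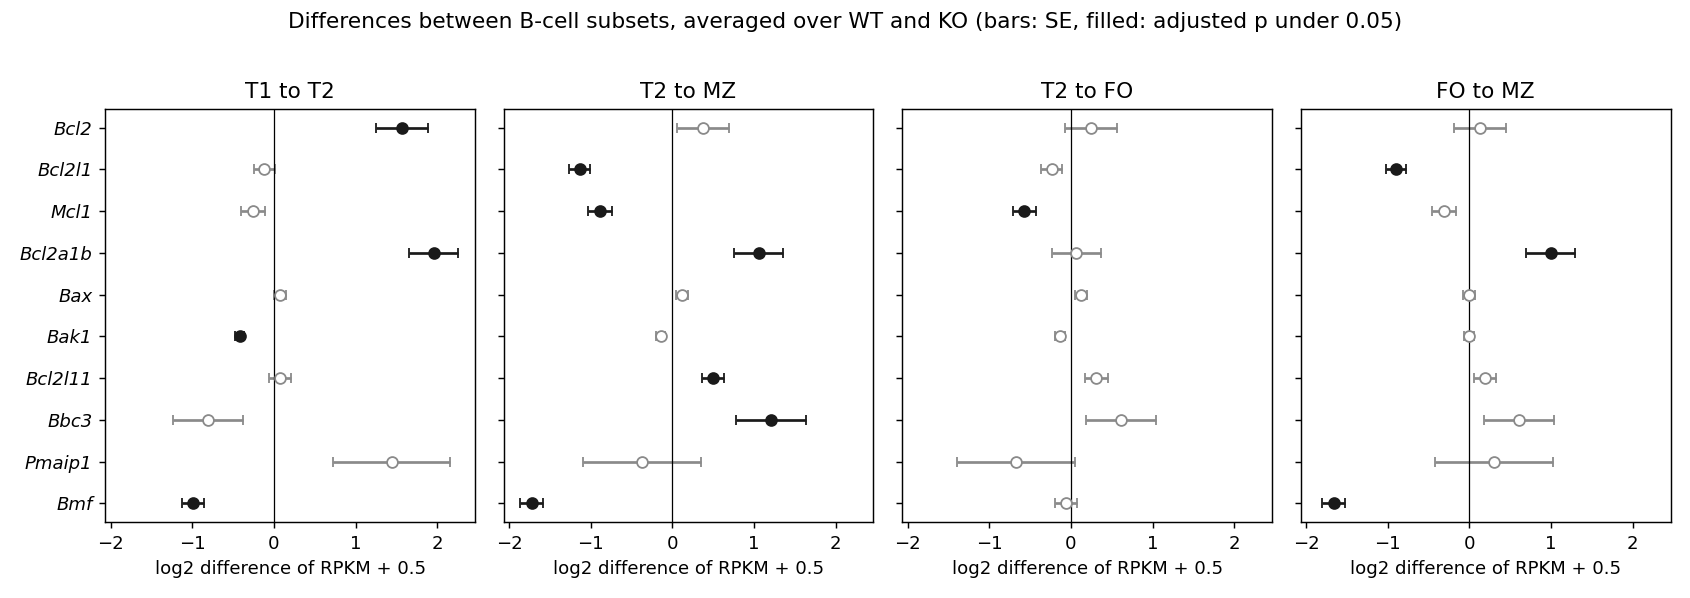
Differences between subsets (x axis, log2 of RPKM + 0.5, second subset minus first) for the 10 members (y axis), averaged over WT and KO, with bars of 1 SE and filled points for an adjusted p under 0.05. Bmf lay at -0.99 from T1 to T2 and at -1.72 from T2 to MZ, and all members but Mcl1 were unfilled from T2 to FO.

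Mcl1 (ENSMUSG00000038612, chr3:95658788-95663176, plus strand), whose short-lived protein is needed by B-cells at all stages, was by far the most abundant survival gene. Over replicates 1 and 2, WT T1 libraries had 490 and 469 RPKM, T2 451 and 351, MZ 179 and 214, FO 242 and 283. The KO T1 libraries had 524 and 424 RPKM, T2 480 and 328, MZ 262 and 212, FO 271 and 276. Every T1 and T2 library was above every MZ and FO library. Mcl1 fell by 0.88 ± 0.14 (SE) from T2 to MZ (adjusted p = 0.000613) and by 0.57 ± 0.14 from T2 to FO (adjusted p = 0.0385), while T1 and T2 (-0.26, adjusted p = 0.219) and FO and MZ (-0.31, adjusted p = 0.114) did not differ past the threshold. The fall from T2 to FO lost its call in 12 of 29 other settings, among them leaving out either WT FO library or all KO replicate 1 libraries (-0.43, adjusted p = 0.347). Summed myeloid marker RNA was lower in every MZ and FO library than in T2, and its part in the falls of Mcl1 from T2 was not tested.

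Bcl2 (ENSMUSG00000057329, chr1:106538178-106714274, minus strand), the founding survival gene of the family, went the other way. For WT, T1 libraries had 3.90 and 11.6 RPKM, T2 22.3 and 20.8, MZ 26.0 and 27.5, FO 26.2 and 26.3. The KO T1 libraries had 3.77 and 10.4 RPKM, T2 19.9 and 19.1, MZ 31.9 and 22.6, FO 23.1 and 22.1. All T1 libraries were below all others, and all MZ libraries were above all T2 libraries. Bcl2 rose by 1.57 ± 0.32 from T1 to T2 (adjusted p = 0.00466), or 2.97-fold. In both genotypes the T1 library of replicate 2 had the higher Bcl2. It also had more plasma cell, T cell, myeloid and cell cycle marker RNA. The rise was 2.27 without these 2 libraries and 0.87 without the T1 libraries of replicate 1. The part of plasma cells, other cell types or cycling cells in the rise was not tested. Without the KO replicate 1 libraries the rise was 1.22 and did not pass (adjusted p = 0.0720). In bulk RNA, fewer cells of a type and less RNA per cell cannot be told apart.

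From T2 to MZ, Bcl2 was 0.38 ± 0.32 higher, which did not pass with all libraries (adjusted p = 0.366). Since the fit shares 1 spread over all groups, the distance between T1 replicates enters this test, and without the T1 libraries the same difference passed (adjusted p = 0.0120). The differences from T2 to FO (0.24, adjusted p = 0.634) and from FO to MZ (0.13, adjusted p = 0.780) did not pass, so that FO could not be ranked against either neighbour. Bcl2 shares 558 exonic bases with D630008O14Rik on the opposite strand, which reached at most 0.9 RPKM, and no source used here says that reads were assigned by strand.

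Bcl2l1 (ENSMUSG00000007659, chr2:152780668-152831728, minus strand) encodes BCL-XL, a survival protein best known in immature lymphocytes and after activation. It was low, with 19 to 155 reads per library. Over replicates 1 and 2, WT T1 libraries had 1.77 and 1.38 RPKM, T2 1.48 and 1.49, MZ 0.398 and 0.369, FO 1.28 and 0.995. For KO, T1 libraries had 1.80 and 1.52 RPKM, T2 1.33 and 1.49, MZ 0.307 and 0.471, FO 1.18 and 1.15. The MZ libraries were all below every other library. Bcl2l1 fell by 1.14 ± 0.13 from T2 to MZ (adjusted p = 4.49e-05) and by 0.90 ± 0.13 from FO to MZ (adjusted p = 0.000267). The added 0.5 RPKM understates changes of so low a gene, and the fall from T2 to MZ was 1.89 with limma-voom on the reads recovered from the RPKM values. T1 and T2 (-0.12, adjusted p = 0.536) and T2 and FO (-0.24, adjusted p = 0.229) did not differ past the threshold.

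Bcl2a1b (ENSMUSG00000089929, chr9:89199209-89207827, plus strand) is a gene of the mouse A1 cluster, a survival protein under NFκB control in lymphocytes. The WT T1 libraries had 0.195 and 1.32 RPKM, T2 4.21 and 5.75, MZ 10.8 and 11.9, FO 4.78 and 5.06. Among KO samples, T1 libraries had 0.548 and 1.86 RPKM, T2 3.97 and 4.88, MZ 8.25 and 10.4, FO 5.04 and 4.69. T1 was below and MZ above all other libraries. It rose by 1.96 ± 0.30 from T1 to T2 (adjusted p = 0.000987), by 1.06 ± 0.30 from T2 to MZ (adjusted p = 0.0157) and by 0.99 ± 0.30 from FO to MZ (adjusted p = 0.0235), and T2 and FO differed by less than their spread (0.06, 95% confidence interval -0.60 to 0.73). These rises kept their calls in all 29 other settings from T1 to T2, in 24 of 30 from T2 to MZ and in 20 of 30 from FO to MZ. The T1 level rested on 2 to 22 reads, and again the T1 libraries of replicate 2 were higher. These had more plasma cell, T cell, myeloid and cell cycle marker RNA, whose part was not tested. The rise was 2.6 without them and 1.31 without the T1 libraries of replicate 1.

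The A1 genes are near-identical copies and the authors kept uniquely aligned reads only, so the split between them is uncertain. Bcl2a1d was at 0.112 to 2.70 RPKM in T1, 3.63 to 5.63 in T2, 8.84 to 12.03 within MZ and 5.37 to 8.43 in FO. Like Bcl2a1b, it was lowest in T1 and highest in MZ. Its FO range lay mostly above its T2 range, whereas that of Bcl2a1b (4.69 to 5.06 RPKM) lay within T2 (3.97 to 5.75). Bcl2a1a and Bcl2a1c were at or near 0. With the 4 genes summed, the rises from T2 to MZ (1.11, adjusted p = 0.0637) and from FO to MZ (0.76, adjusted p = 0.210) no longer passed, and that from T1 to T2 did (2.1, adjusted p = 0.00569).

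Summed over the 4 survival genes, RPKM was 438 to 531 in T1 libraries, 353 to 506 in T2, 217 to 303 in MZ and 274 to 315 in FO libraries. Mcl1 made up 96.9% to 98.8% of this sum in T1, 92.6% to 95.02% in T2, 82.9% to 86.6% within MZ and 88.3% to 90.8% in FO, ranges that did not overlap. The share of Bcl2 was 0.711% to 2.40%, 3.93% to 5.49%, 9.22% to 11.99% and 7.29% to 9.53%, and that of Bcl2a1b was 2.73% to 4.97% in MZ and at most 1.74% elsewhere. The ratio of Mcl1 to Bcl2 was 40.4 to 139 in T1, 16.9 to 24.2 in T2, 9.26 to 12.5 in FO and 6.91 to 9.37 in MZ. The sum leaves out the survival genes Bcl2a1d (8.84 to 12.03 RPKM in MZ) and Bcl2l2 (5.46 to 7.87 in MZ), with which the share of Mcl1 would be lower. RNA shares give no measure of protein.

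**Figure D3:**
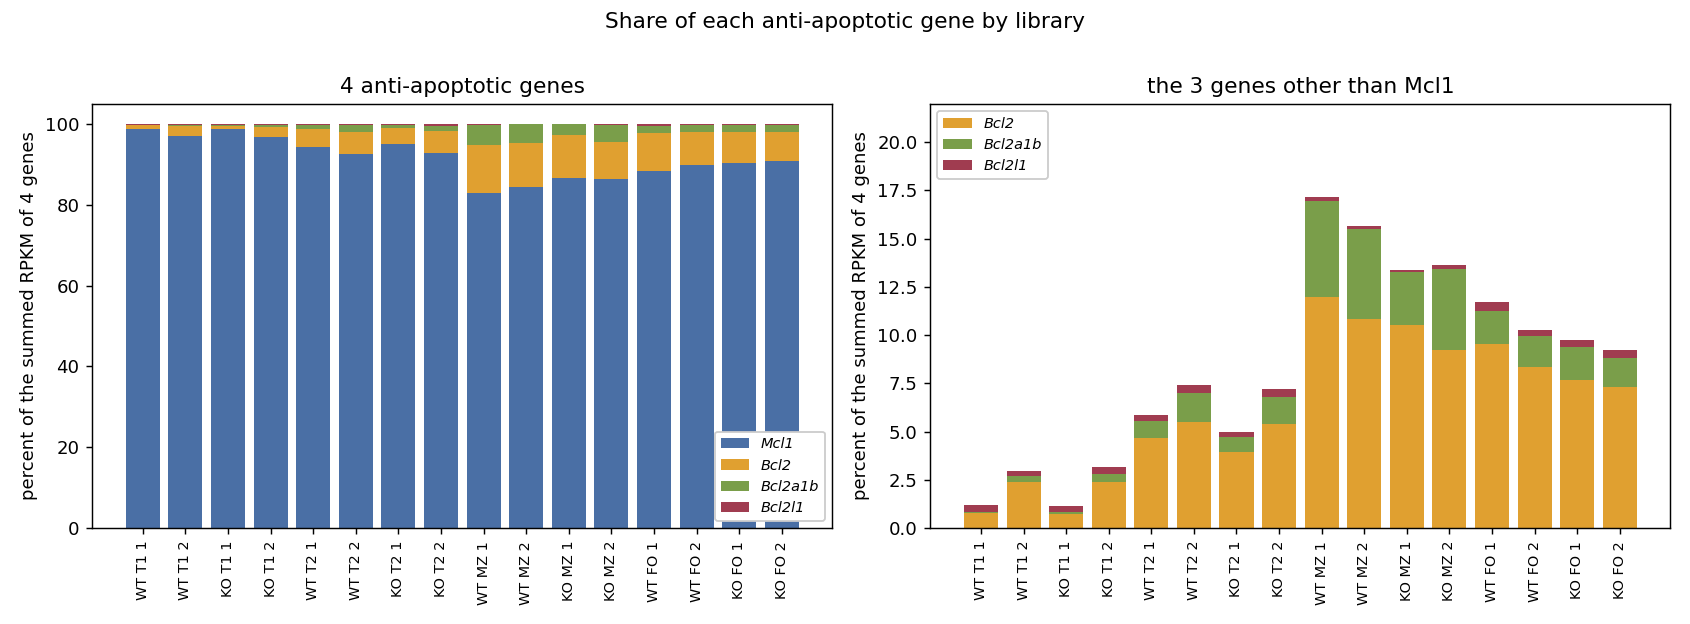
Stacked bars of each survival gene's percent of the summed RPKM of Bcl2, Bcl2l1, Mcl1 and Bcl2a1b in the 16 libraries (left), and the same bars without Mcl1 on a wider scale (right). Mcl1 is above 82% in every library, and the genes other than Mcl1 take the largest share in MZ.

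Bax and Bak1, the effectors, stayed within narrow ranges. Bax (ENSMUSG00000003873, chr7:45461697-45466898, minus strand) had 54.8 and 50.3 RPKM in WT T1 libraries, 51.1 and 50.9 for T2, 59.8 and 56.4 for MZ, 60.1 and 55.0 for FO. Among KO samples, T1 libraries had 48.2 and 52.8 RPKM, T2 51.8 and 63.1, MZ 58.1 and 60.4, FO 63.2 and 57.9. No difference between the pairs of subsets tested passed for Bax with the RPKM values as deposited, the farthest from 0 being 0.13 ± 0.07 from T2 to FO (95% confidence interval -0.04 to 0.29). After quantile normalization Bax passed from T2 to MZ (0.23, adjusted p = 0.0202).

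Bak1 (ENSMUSG00000057789, chr17:27019810-27029009, minus strand) had 18.6 and 18.6 RPKM in WT T1 libraries, 14.2 and 12.7 for T2, 12.8 and 13.3 for MZ, 12.4 and 11.8 for FO. For KO, T1 libraries had 19.97 and 19.6 RPKM, T2 15.3 and 14.8, MZ 12.1 and 13.04, FO 14.4 and 13.2. The T1 libraries were all above every other library. Bak1 fell by 0.42 ± 0.06 from T1 to T2 (adjusted p = 0.000557), a call kept in all 28 other settings. From T2 to MZ it was 0.15 ± 0.06 lower (adjusted p = 0.0681). Ggnbp1 on the opposite strand shares 437 exonic bases with it and reached 5.21 RPKM.

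Among the 10 members, the largest fall from T2 to MZ was that of the BH3-only gene Bmf (ENSMUSG00000040093, chr2:118528757-118549687, minus strand). Its protein is held at the cytoskeleton by a dynein light chain until stress releases it. Over replicates 1 and 2, WT T1 libraries had 43.2 and 26.6 RPKM, T2 16.5 and 17.6, MZ 4.59 and 4.62, FO 15.8 and 17.5. Among KO samples, T1 libraries had 35.2 and 26.7 RPKM, T2 14.8 and 15.2, MZ 4.14 and 4.64, FO 13.4 and 15.0. T1 was above and MZ below all other libraries, and T2 and FO overlapped. Bmf fell by 0.99 ± 0.14 from T1 to T2 (adjusted p = 0.000537), by 1.72 ± 0.14 from T2 to MZ (adjusted p = 3.78e-06) and by 1.66 ± 0.14 from FO to MZ (adjusted p = 4.95e-06), while T2 and FO differed by -0.06 (95% confidence interval -0.36 to 0.24). From T2 to MZ the fall was 3.30-fold, and 3.69% of tested genes changed more in either direction. In T1 the replicate 2 libraries were lower, and the fall to T2 was 1.26 without them and 0.72 without those of replicate 1, both passing. All 3 calls were kept in every other setting, between 1.63 and 1.86 for T2 to MZ as the size of the fall.

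Bcl2l11 (ENSMUSG00000027381, chr2:128126038-128162547, plus strand) encodes BIM, the main killer of self-reactive B-cells. For WT, T1 libraries had 6.19 and 6.88 RPKM, T2 7.62 and 6.49, MZ 12.7 and 9.35, FO 9.84 and 8.06. In KO mice, T1 libraries had 5.02 and 7.17 RPKM, T2 5.96 and 6.57, MZ 7.61 and 9.41, FO 7.38 and 8.33. The T2 and MZ libraries overlapped only in that KO MZ replicate 1 lay just under WT T2 replicate 1. From T2 to MZ it rose by 0.50 ± 0.14 (adjusted p = 0.0123), and without the highest library, WT MZ replicate 1, by 0.40 without passing (adjusted p = 0.0549). None of T1 to T2 (0.08, adjusted p = 0.716), T2 to FO (0.31, adjusted p = 0.147) and FO to MZ (0.19, adjusted p = 0.312) passed.

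As Bmf fell and Bcl2l11 rose, the ratio of Bmf to Bcl2l11 turned over. It was 3.72 to 7.01 in T1, 2.16 to 2.71 in T2, 1.60 to 2.17 in FO and 0.362 to 0.545 in MZ. In the libraries of T1, T2 and FO, Bmf had the higher RPKM, and in all 4 MZ libraries Bcl2l11 had.

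Bbc3 (ENSMUSG00000002083, chr7:16308393-16318205, plus strand) encodes PUMA, which p53 and FOXO proteins induce. It was low, with 7 to 179 reads. Over replicates 1 and 2, WT T1 libraries had 4.01 and 1.61 RPKM, T2 0.996 and 1.13, MZ 4.54 and 2.16, FO 3.38 and 1.30. For KO, T1 libraries had 0.758 and 2.79 RPKM, T2 0.290 and 1.67, MZ 2.21 and 2.80, FO 1.47 and 1.15. All MZ libraries were above all T2 libraries. Bbc3 rose by 1.21 ± 0.43 from T2 to MZ (adjusted p = 0.0414). This call was lost in 13 of 29 other settings, among them limma-voom (1.63, adjusted p = 0.0532) and leaving out WT MZ replicate 1 (0.98, adjusted p = 0.140) or all KO replicate 1 libraries (0.92, adjusted p = 0.183).

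Pmaip1 (ENSMUSG00000024521) encodes NOXA, a BH3-only protein that binds MCL-1. The WT T1 libraries had 16.2 and 10.98 RPKM, T2 30.8 and 29.7, MZ 34.8 and 25.1, FO 31.1 and 11.6. In KO mice, T1 libraries had 2.44 and 15.96 RPKM, T2 11.9 and 42.6, MZ 4.98 and 35.5, FO 7.53 and 24.7. In each KO subset the replicate 1 library was below the replicate 2 library by a wide margin. No subset difference passed, with 1.44 ± 0.72 from T1 to T2 (adjusted p = 0.169) and -0.37 ± 0.72 from T2 to MZ (adjusted p = 0.711). In all 4 pairs of the same genotype and replicate number, T2 was above T1. With the replicate number as a block within each genotype, a fit added after seeing the data, the rise from T1 to T2 passed (1.44, adjusted p = 0.00165).

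The KO replicate 1 libraries, low in immediate early genes, were low in Pmaip1 as well. It was 2.44 to 11.9 RPKM in the 4 KO replicate 1 libraries and 10.98 to 42.6 in the other 12, ranges that overlapped narrowly. In all 8 groups the replicate with more immediate early RNA also had more Pmaip1, an order found in all 8 groups for 1.68% of tested genes. Bax and Bcl2l11 followed it in 7 groups, as 5.25% of genes did in 7 or more, Bbc3 in 6 and Bmf in 4. Bcl2l11 also followed the order of plasma cell marker RNA in all 8 groups, as 0.488% of genes did. Outside T1 that sum is mostly Irf4, so there the order is not one of plasma cells. For myeloid marker RNA the order was followed by Bcl2a1b in 7 groups, as 9.46% of genes did in 7 or more, by Bmf in 6 and by the other members in 2 to 5. Of all tested genes, those whose log2 values correlated most with Pmaip1 over the 16 libraries were Eif1 (r = 0.971), a translation initiation factor, Nr4a1 (r = 0.968), an immediate early nuclear receptor, and Ppp1r15a (r = 0.966), a stress-induced phosphatase subunit. Libraries share subset and genotype, so the r values are descriptions, and the part of the immediate early genes in the spread of Pmaip1 was not tested.

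**Figure D4:**
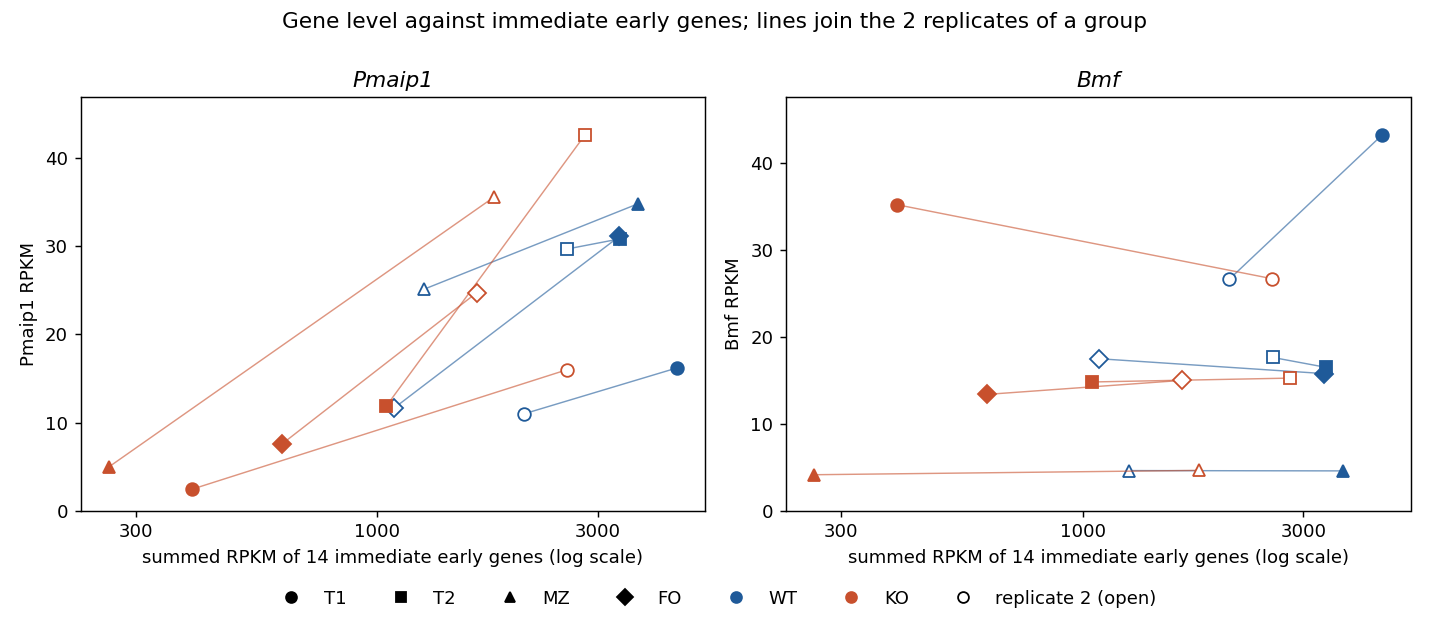
RPKM of Pmaip1 (left) and Bmf (right) on the y axis against the summed RPKM of 14 immediate early genes (x axis, log scale), 1 point per library, with WT in blue, KO in orange, open symbols for replicate 2 and a line joining the replicates of a group. All 8 lines rise for Pmaip1, while for Bmf 4 of 8 do and the subsets separate by level.

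The genes closest in profile to the other members over the 16 libraries are given in the same way, as descriptions. Bmf was closest to Dgkd (r = 0.989), Gpd1l and Csrp2, Mcl1 to Sp100 (r = 0.988), Mtpn and 5430417L22Rik, and Bcl2a1b to Xrcc5 (r = 0.987), Noxred1 and Clip1. Bcl2l1 was closest to H3f3a (r = 0.986), Orai2 and Slc15a3, and Bcl2 to Nxpe2 (r = 0.974), Wapal and Mns1. For Bak1 the closest were Plxna1 (r = 0.959), Tspan14 and Spib, for Bax Sac3d1 (r = 0.904), Vps28 and Ppp1r11, for Bcl2l11 Bcar3 (r = 0.893), Atp5g2 and Nfatc1, and for Bbc3 Chpf (r = 0.855), Cep164 and Napa. All 16 libraries carry the same 4 subsets, so any gene that marks a subset scores high.

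KO and WT were then compared within each subset, the direct question of whether loss of miR-146a moved these genes. With limma, 0 of the 10 members passed in any of T1, T2, MZ and FO, where 0.04%, 0.048%, 0.064% and 0.04% of tested genes did, and 0 passed with limma-voom. At an unadjusted p under 0.05 there were 0 members in each subset, where 3.51%, 3.37%, 1.65% and 0.919% of tested genes lay. Averaged over the 4 subsets 0 passed, against 0.232% of genes. Only Bak1 had an unadjusted p under 0.05 (0.09 ± 0.04 higher in KO, adjusted p = 0.625), near the 7.98% of all tested genes. For the pair with a seed match, KO minus WT in MZ was 0.01 for Bcl2 (95% confidence interval -0.99 to 1.00) and 0.0033 for Bcl2l1 (-0.39 to 0.40). Averaged over the subsets it was -0.11 for Bcl2 (-0.61 to 0.38) and 0.0093 for Bcl2l1 (-0.19 to 0.21), so that the interval was wider for Bcl2.

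The members differed in how narrowly these data bound a genotype difference. Averaged over the subsets, the interval was -0.06 to 0.17 for Bax, -0.15 to 0.30 for Mcl1, -0.36 to 0.06 for Bmf and -0.41 to 0.02 for Bcl2l11. Bcl2l11 was lower in KO in each of the 4 subsets, by 0.11 in T1, 0.16 in T2, 0.35 within MZ and 0.17 in FO, and in none past the threshold. For Bcl2l11 the averaged difference was -0.20, and -0.06 without the KO replicate 1 libraries. For Mcl1 the averaged difference was 0.07, and -0.07 without those libraries. The interval was widest for Pmaip1, at -1.86 to 0.38. Pmaip1 was lower in KO by 0.99 ± 1.02 in T1, 0.41 in T2, 1.1 within MZ and 0.46 in FO (adjusted p = 1.0 in each). Without the KO replicate 1 libraries, Pmaip1 was instead higher in KO, by 0.25 in T1, 0.49 in T2, 0.26 within MZ and 0.37 in FO, and again did not pass, so its direction rested on those libraries.

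**Figure D5:**
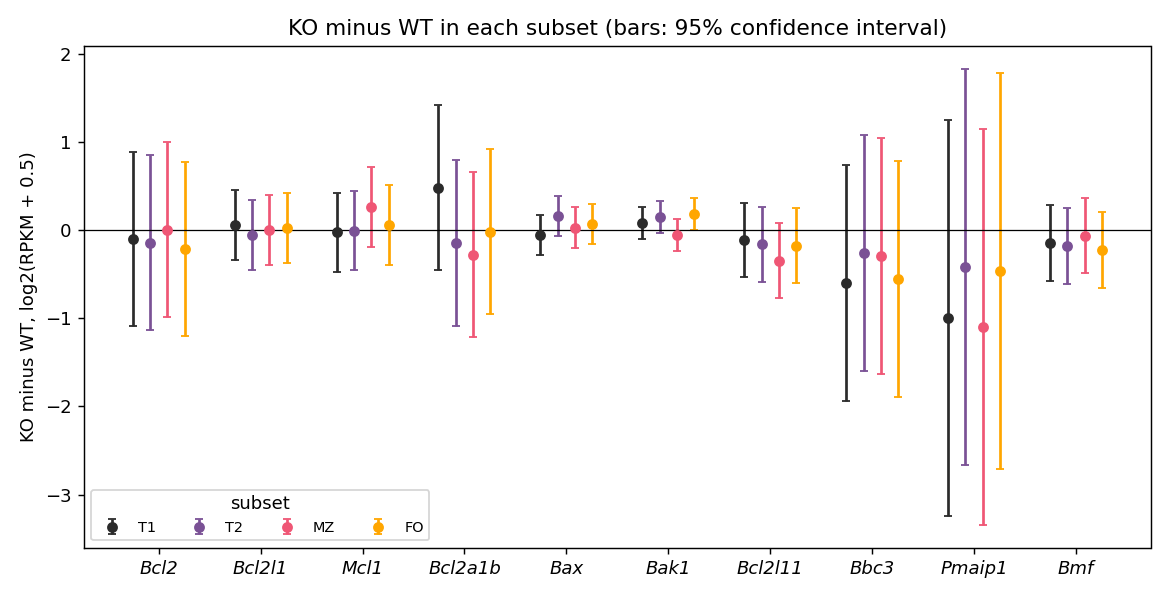
KO minus WT in log2 of RPKM + 0.5 (y axis) for the 10 members (x axis) in T1, T2, MZ and FO (colours), with bars of the 95% confidence interval. Every interval holds 0, and those of Pmaip1 are the widest (in MZ, -3.34 to 1.15).

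The step from T2 to MZ was compared between genotypes as well, since MZ cells are the subset of interest in these mice. In WT, 4 members passed, Bcl2l11 higher and Bmf, Bcl2l1 and Mcl1 lower, against 29.3% of genes in either direction. In KO, 4 passed, Bmf, Bcl2l1, Mcl1 and Bak1, all lower, against 25.3%. Bmf fell by 1.78 ± 0.19 in WT and 1.67 ± 0.19 in KO, Bcl2l1 by 1.17 ± 0.18 and 1.11 ± 0.18, and Mcl1 by 1.02 ± 0.20 and 0.75 ± 0.20. In WT each of these falls kept its call in all 29 other settings. In KO the call was kept in 29 of 29 for Bmf, 28 for Bcl2l1 and 24 for Mcl1. Bcl2l11 was higher by 0.60 ± 0.19 in WT (adjusted p = 0.0390), a call lost in 10 of 29 other settings, and 0.41 ± 0.19 in KO (adjusted p = 0.153). Bak1 was -0.04 ± 0.08 in WT (adjusted p = 0.761) and -0.25 ± 0.08 in KO (adjusted p = 0.0483), a call lost in 20 of 29 other settings. Bcl2a1b did not pass in WT (1.122, adjusted p = 0.0715) or KO (0.99, adjusted p = 0.117), and without the T1 libraries it passed in both (adjusted p = 0.00129 and 0.00268).

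Calls made in 1 genotype only were not shown to differ between genotypes when the difference itself was tested. For T2 to MZ, 0 members passed the interaction of genotype and step, against 0.008% of genes, and 0 passed with limma-voom. At an unadjusted p under 0.05 there were 0 members, against 1.66% of genes. The interaction (KO step minus WT step) was -0.19 ± 0.27 for Bcl2l11, -0.21 ± 0.12 for Bak1, 0.27 ± 0.29 for Mcl1 and 0.11 ± 0.27 for Bmf, each with adjusted p = 1.0. From T2 to FO, 0 members passed in WT (0.24% of genes) and 0 in KO (0.0%), with Mcl1 alone at an unadjusted p under 0.05 in each (-0.60 and -0.54), and limma-voom gave 0. The interaction for T2 to FO gave 0 members with limma, at an unadjusted p under 0.05 and with limma-voom. Of all tested genes 0.008% were past the adjusted threshold and 0.983% at an unadjusted p under 0.05.

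The other genes of the family were described from a list of 16, of which 9 were tested. From T1 to T2, 3 rose and 1 fell, from T2 to MZ 4 rose and 3 fell, from T2 to FO 0 passed in either direction, and from FO to MZ 4 rose and 2 fell. Over all tested genes the shares higher and lower were, as given above, 16% and 9.94% from T1 to T2, 22.8% and 19.6% from T2 to MZ, 4.77% and 5.04% from T2 to FO, and 19.9% and 17.4% from FO to MZ. The list's median difference from T2 to MZ was 0.77, against 0.02 over all tested genes. Bid, whose protein is cut by caspases to link death receptors to the mitochondrion, was at 9.23 to 13.7 RPKM in T1, 13.4 to 18.7 in T2, 46.0 to 50.1 within MZ and 14.7 to 18.0 in FO. It rose by 1.59 ± 0.13 from T2 to MZ (adjusted p = 5.18e-06) and by 1.49 ± 0.13 from FO to MZ (adjusted p = 8.53e-06). Every MZ library thus had more Bid than any of Bmf, Bcl2l11, Bbc3 and Pmaip1.

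Bcl2l2, which encodes the survival protein BCL-W, rose by 0.96 ± 0.17 from T2 to MZ (adjusted p = 0.000936), from 2.44 to 3.57 RPKM in T2 to 5.46 to 7.87 in MZ. Bcl2l12 rose by 0.77 ± 0.10 (adjusted p = 0.000107) and reached 10.8 to 13.9 RPKM in MZ. Bcl2l15, low throughout, was at 0.102 to 0.253 RPKM in FO and 0.783 to 1.62 in MZ, and rose by 1.22 ± 0.24 from FO to MZ (adjusted p = 0.00214). Bnip3, a mitochondrial protein of hypoxia and mitophagy, fell by 0.78 ± 0.13 from T2 to MZ (adjusted p = 0.000702), from 2.57 to 3.74 RPKM in T2 to 1.33 to 1.91 in MZ. From T1 to T2, Bad, a BH3-only gene of growth factor withdrawal, fell by 0.40 ± 0.10 (adjusted p = 0.0116), while Bnip3 rose by 0.54 ± 0.13 (adjusted p = 0.0114), Bid by 0.43 ± 0.13 (adjusted p = 0.0341) and Bcl2a1d by 1.73 ± 0.45 (adjusted p = 0.0168). From FO to MZ, Bcl2l2 rose by 0.84 ± 0.17 (adjusted p = 0.00244) and Bnip3 fell by 0.84 ± 0.13 (adjusted p = 0.000483).

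Downstream of the mitochondrion, 15 genes were listed and tested. From T1 to T2, 5 rose and 2 fell, from T2 to MZ 4 rose and 4 fell, from T2 to FO 1 rose and 3 fell, and from FO to MZ 6 rose and 1 fell. The counts from T2 to MZ were near the shares over all tested genes, 22.8% higher and 19.6% lower, and the shares for the other steps were 16% and 9.94%, 4.77% and 5.04%, and 19.9% and 17.4%. Of the caspases, Casp9, the initiator, was at 15.2 to 20.2 RPKM in T1, 10.002 to 12.4 in T2, 14.4 to 18.1 within MZ and 9.83 to 12.5 in FO. It fell by 0.58 ± 0.10 from T1 to T2 (adjusted p = 0.00216) and rose by 0.54 ± 0.10 from FO to MZ (adjusted p = 0.00186). Casp6 rose by 0.66 ± 0.07 from T2 to MZ (adjusted p = 1.86e-05), to 16.1 to 17.1 RPKM. Cycs, the cytochrome c gene, fell by 0.44 ± 0.07 from T2 to MZ (adjusted p = 0.00035), and Vdac1, a channel of the outer membrane, rose by 0.43 ± 0.06 (adjusted p = 0.000275). From T1 to T2 the same pair went the other way, Cycs 0.35 ± 0.07 higher (adjusted p = 0.00349) and Vdac1 0.26 ± 0.06 lower (adjusted p = 0.0114). From FO to MZ, Casp6 rose by 0.55 ± 0.07 and Vdac1 by 0.53 ± 0.06, and Birc3 fell by 0.38 ± 0.08. Birc3, an inhibitor of apoptosis induced by NFκB, was at 86.0 to 111 RPKM in T2, overlapping FO at 78.0 to 93.7. It rose by 0.50 ± 0.08 from T1 to T2 (adjusted p = 0.00083) and fell by 0.59 ± 0.08 from T2 to MZ (adjusted p = 0.000112).

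Of 15 regulators and binding partners of the members, 14 were tested. From T1 to T2, 2 rose and 2 fell, from T2 to MZ 4 rose and 6 fell, from T2 to FO 0 passed, and from FO to MZ 3 rose and 5 fell. The shares over all tested genes were 16% and 9.94% for T1 to T2, 22.8% and 19.6% for T2 to MZ, 4.77% and 5.04% for T2 to FO, and 19.9% and 17.4% for FO to MZ, so that the counts from T1 to T2 and the rises from FO to MZ were near them. Foxo1, a transcription factor that acts at Bcl2l11 and Bbc3, fell by 0.73 ± 0.12 from T2 to MZ (adjusted p = 0.000812), from 50.6 to 67.4 RPKM in T2 to 33.0 to 39.7 in MZ. Foxo3 was at 12.4 to 13.9 RPKM in T2 and 13.6 to 16.5 in MZ. Bcl2l11 and Bbc3 were higher in MZ, a call that Bbc3 kept in 16 of 29 other settings. The part of FOXO factors in these differences was not tested. Trp53, the gene of p53, rose by 0.37 ± 0.06 from T2 to MZ (adjusted p = 0.000344), and its target Cdkn1a fell by 1.35 ± 0.28 (adjusted p = 0.00304). Cdkn1a was low, at 0.674 to 1.57 RPKM in T2 and 0.0666 to 0.256 in MZ. E2f1, a cell cycle factor that can induce BH3-only genes, fell by 0.64 ± 0.13 from T1 to T2 (adjusted p = 0.00493), rose by 0.70 ± 0.13 from T2 to MZ (adjusted p = 0.00141) and was 1.07 ± 0.13 higher in MZ than in FO (adjusted p = 8.58e-05). Pim2, a survival kinase, fell by 0.65 ± 0.11 from T1 to T2 (adjusted p = 0.0021), and Usp9x, which removes ubiquitin from MCL-1, rose by 0.43 ± 0.11 (adjusted p = 0.0164), as did Huwe1 by 0.25 ± 0.07 (adjusted p = 0.0257). From FO to MZ, Foxo1 fell by 0.64 ± 0.12, Cdkn1a by 0.98 ± 0.28, and Huwe1 rose by 0.41 ± 0.07. Huwe1, a ubiquitin ligase of MCL-1, rose by 0.59 ± 0.07 from T2 to MZ (adjusted p = 7.73e-05), where Mcl1 RNA fell. The dynein light chains that hold BIM (Dynll1) and BMF (Dynll2) moved in opposite directions, Dynll1 falling by 0.27 (adjusted p = 0.00489) and Dynll2 rising by 0.27 (adjusted p = 0.00572) from T2 to MZ.

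Between the genotypes, averaged over the subsets, 0 of 9 other family genes and 0 of 15 downstream genes passed, where 0.232% of all tested genes did. Of the 14 regulators and partners, Dynll1 alone did, 0.33 ± 0.04 higher in KO (adjusted p = 0.0144). Its mean was higher in KO in each subset, for example 23.5 ± 0.901 against 18.4 ± 1.18 RPKM (SD, n = 2) in MZ and 29.7 ± 0.305 against 23.6 ± 1.1 in T1. The mean of Dynll2 was also higher in KO in each subset, for example 12.8 ± 0.215 against 11.6 ± 0.590 RPKM in MZ, without passing. Both genes were named after their values were seen.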

How the data were processed

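RNA of sorted splenic B-cells was sequenced (single-end, Illumina). TopHat alignment by the authors used the mm10 genome and tolerated at most 2 mismatches. From reads with a single best place the authors made the deposited RPKM values, using Perl scripts. Versions of these tools: not given in the sources used here. The authors tested counts with DESeq and edgeR, and those results were not used. Values of 13395 of the 23194 genes above 0 were whole reads (tolerance 0.01) at the GENCODE M21 exon length. The other 9799 were whole at another length, fitted here as the shortest that gives whole reads, so their reads rest on that fit.

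Here log2(RPKM + 0.5) was fitted with limma 3.58.1 in R 4.3.3 (8 groups, variance trend, Benjamini-Hochberg over 12507 genes), two-sided. Tables were made in pandas 2.3.3 (numpy 2.4.6, Python 3.11.15), and the fit was tested on simulated data. The named genes were the 10 members and, of each list, the 4 with the smallest p from T1 to T2, T2 to MZ and FO to MZ, plus the 3 genes closest in profile to each member. Cdkn1a from T2 to MZ, Dynll1 and Dynll2 were named after their values were seen. The members and lists were chosen with earlier results of these data known. Replicates are labelled biological, and p measures the spread between these samples. Alternatives were 2 pseudocounts, no filter, other scalings, a replicate block (also within genotype), limma-voom on the recovered reads, summed paralogs and left-out libraries.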

Additional observations from a re-analysis of the deposited data

How the results depend on the processing

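Of 22 member results that passed, 12 kept their call in every setting tried, and over 637 combinations of result and setting 557 kept the call, 80 lost it and 0 reversed direction. Results that did not pass gained a call in 29 combinations, most of them Bcl2a1b or Bcl2 from T2 to MZ. Settings without the KO replicate 1, T1 replicate 2 or T1 replicate 1 libraries, and the block within genotype, were chosen after seeing the data. Requiring a fold over 2 as well left 2 members from T1 to T2, 0 from T2 to FO, 1 from FO to MZ and 2 from T2 to MZ in KO. From T2 to FO the 1 member fell to 0 with no filter on low values, with quantile normalization, when just the compared groups were fitted and without the KO replicate 1 libraries. From T2 to MZ in KO the 4 members fell to 2 when just the compared groups were fitted and to 1 without the KO replicate 1 libraries. Leaving out 1 library at a time gave 0 to 1 members from T2 to FO and 2 to 4 from T2 to MZ in KO. The cause of these changes was not tested. The deviations of same-numbered samples correlated from -0.361 to 0.300 over 16 pairs of groups between genotypes, so a number did not pair WT with KO. Within a genotype the deviations went together, from 0.190 to 0.445 over 6 pairs in KO and from 0.0756 to 0.453 over 6 in WT. This is a hint from the data and not from the labels. With a replicate block over all libraries, 4 members passed from T1 to T2, 5 from T2 to MZ, 1 from T2 to FO and 3 from FO to MZ. With the replicate block within each genotype the counts were 5, 6, 1 and 3, Pmaip1 being gained from T1 to T2, and 0 members passed an interaction. With 2 libraries a group, and as few as 2 reads of Bcl2a1b in T1, small differences between genotypes could not be detected.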
